A study of Mus musculus with 6 samples.

Results

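The creatine kinase system of the heart was followed through 7 genes in mice that had lost Nelfb, which encodes a subunit of the negative elongation factor (NELF). The genes were the 4 creatine kinase genes Ckb, Ckm, Ckmt2 and Ckmt1, the creatine transporter gene Slc6a8 and the creatine synthesis genes Gatm and Gamt. Every array probe annotated to these genes was taken, which gave 8 probes of the 25696 on the array. Ckmt2 had 2 probes and each other gene had 1. Of the 8 probes, 6 (of 5 genes) passed the detection filter and were tested among 10407 probes. The probes of Ckmt1 and Gatm did not pass it and are described without a test.

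The knockout group was 3 female C57BL/6J mice with Nelf-b f/f alleles and CreER, a Cre recombinase that tamoxifen activates. The control group was 3 female C57BL/6J mice with the same Nelf-b f/f alleles and no CreER. Tamoxifen was injected into all 6 mice when they were 8 weeks old. Hearts were taken at 20 weeks, after a fast of 5 hours, from animals kept on regular chow. An effect of the recombinase therefore cannot be told apart from an effect of Nelfb loss. The labels do not name the promoter that drives CreER. RNA of each heart was hybridised to 1 Illumina bead array. A heart holds several cell types, and in bulk RNA fewer cells of a type and less RNA per cell cannot be told apart.

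The headers of the deposited table of signals that were not normalized carry the opposite group names from the sample records. Arrays were assigned by the sample records, after a match of ranks over all probes between that table and the value table keyed to the records (Spearman rho of 1 for each array with its own record, and at most 0.854 with any other). With the headers' names every sign below turns. Under the records' names the signal of the targeted gene Nelfb was 5.41, 5.46 and 5.46 in the knockout hearts and 7.01, 7.08 and 7.07 in the control hearts (normalized log2 signal, the brighter of its 2 probes). The log2 difference was -1.61 ± 0.13 SE (limma, Benjamini-Hochberg adjusted p = 0.000240). Its other probe had a difference of -0.94 ± 0.14 SE (limma adjusted p = 0.00406). Where these probes lie relative to the deleted part is not known here. The mean signal before normalization was 208.0 to 259.9 in knockout arrays and 169.8 to 310.3 in control arrays, and 38.8% to 43.8% of probes were detected per array. Control array 1 stood apart on the second principal component (18.3% of variance), at -22.36 against -1.76 to 9.86 for the other arrays. Knockout array 1 stood apart in 3 of 4 atrial markers, with the atrial light chain gene Myl4 at 10.23 against 5.71 to 5.95 on the other 5 arrays.

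Creatine kinases move a phosphate group between ATP and creatine, so that phosphocreatine can buffer ATP where it is spent and carry energy from mitochondria to the myofibrils. Cytosolic enzymes are dimers of the muscle subunit M (Ckm) and the brain-type subunit B (Ckb), while Ckmt2 and Ckmt1 encode the sarcomeric and the ubiquitous enzyme of the mitochondrial intermembrane space. The adult heart relies mainly on the M subunit and the sarcomeric mitochondrial enzyme, and the B subunit is more prominent in the embryonic heart, in brain and in smooth muscle. Creatine itself is made in 2 steps by the products of Gatm and Gamt, chiefly in kidney and liver, and is carried into muscle by the transporter that Slc6a8 encodes.

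Sequence just upstream of the start sites is shown for the pair of cytosolic isoform genes, Ckb and Ckm, because NELF acts on polymerase close to promoters and because their isoforms share the cytosol. Each sequence is the 250 bases before the RefSeq start (GRCm38.p6), read 5′ to 3′ on the gene's own strand. The Ckb sequence lies at chr12:111672339-111672588 on the minus strand, and the Ckm sequence at chr7:19410844-19411093 on the plus strand. Capitals mark matches on either strand to 3 motifs. The core of the box that TATA-binding protein recognises was searched as TATANA. The box bound by factors such as NF-Y was searched as CCAAT. The E-box of basic helix-loop-helix factors was searched as CANNTG. The letters were chosen with the sequences in view.
Ckb: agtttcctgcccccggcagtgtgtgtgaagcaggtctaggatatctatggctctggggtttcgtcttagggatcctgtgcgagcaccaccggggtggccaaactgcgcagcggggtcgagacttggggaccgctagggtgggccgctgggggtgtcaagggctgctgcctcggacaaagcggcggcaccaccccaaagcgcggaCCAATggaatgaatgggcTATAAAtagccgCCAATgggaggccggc
Ckm: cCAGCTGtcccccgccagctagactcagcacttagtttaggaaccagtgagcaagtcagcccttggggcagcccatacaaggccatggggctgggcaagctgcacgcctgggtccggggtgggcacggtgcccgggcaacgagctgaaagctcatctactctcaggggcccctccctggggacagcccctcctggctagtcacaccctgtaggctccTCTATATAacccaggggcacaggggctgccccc
The Ckb sequence held TATAAA with its first base 28 bases before the start, and CCAAT beginning at 46 and at 16 bases before it. The Ckm sequence held TATATA beginning 31 bases before the start, which overlaps a second match to TATANA on the opposite strand, and 1 E-box beginning 249 bases before the start. CCAAT was not among the letters of the Ckm window, and CANNTG was not among those of the Ckb window. A further motif, GGGCGG, was searched on either strand as well, and neither window held it. Over all 32851 windows of this length, 22.6% held TATANA, 33.8% CCAAT, 66.2% CANNTG and 32.7% GGGCGG. Matches of letters describe these windows only.

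The brain-type gene Ckb was higher in knockout hearts, while no call was made for the other 4 tested genes. Ckb was 2.27-fold higher and was the only one of the 6 tested probes to pass an adjusted p of 0.05. Among all 10407 tested probes 3.80% were called, 1.92% as higher and 1.87% as lower in knockout. Of the 6 tested probes 5 had a positive difference in every alternative run for them, and the brighter Ckmt2 probe was at 0.00 ± 0.15 SE and turned negative without knockout array 3, control array 2 or control array 3. Over all tested probes 50.8% had a positive difference. The median log2 difference of the 6 was 0.31, and 0.29 with Ckb left out, against 0.01 over all tested probes. These summaries were made with earlier results for some of the genes known, and the 2 Ckmt2 probes share a gene.

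**Figure D1:**
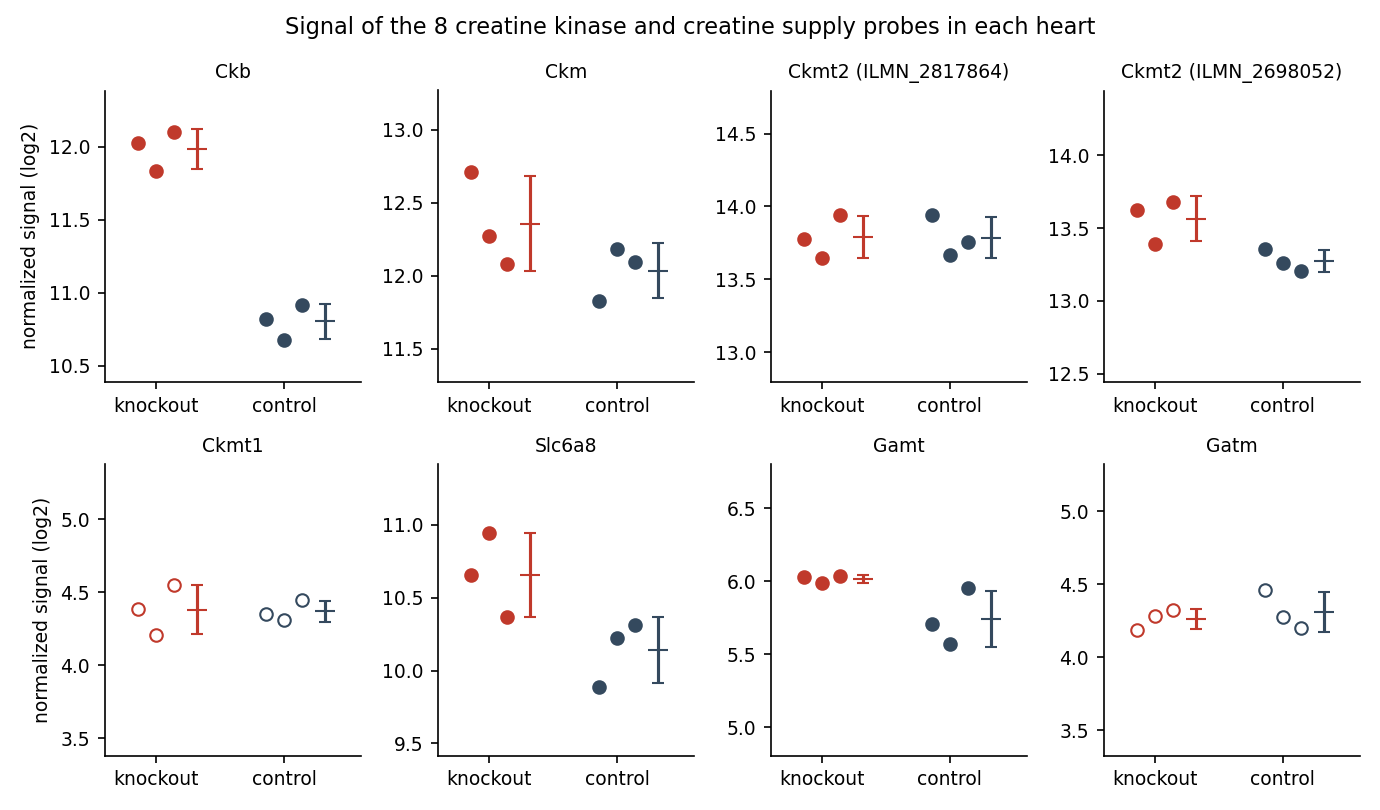
Normalized signal (log2) of each of the 8 probes in 3 knockout hearts (red) and 3 control hearts (dark blue). Filled points passed a detection p of 0.05 on that array and open points did not; bars show mean ± SD over 3 arrays, and each panel spans the same height of 2 on the log2 scale, at its own level. The Ckb groups lie far apart, the Ckm groups overlap, and the points of Ckmt1 and Gatm are all open.

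Ckb (chromosome 12, GRCm38.p6, 111669355 to 111672338) encodes the B subunit. Its normalized log2 signal was 12.02, 11.84 and 12.10 in the knockout hearts, against 10.82, 10.67 and 10.91 in the control hearts. Every knockout heart was above every control heart, and the gap between the groups was far wider than the spread within either. Means were 11.99 ± 0.14 in knockout and 10.80 ± 0.12 in control hearts (SD, n = 3 each). The log2 difference was 1.18 ± 0.14 SE, with a 95% interval of 0.87 to 1.5 (limma adjusted p = 0.00131). On the fold scale the interval was 1.83 to 2.83. By p the probe ranked 26 among the 10407, and 0.452% of tested probes had a larger absolute difference. In the authors' value table, on a linear scale, Ckb signal was 4873, 4326 and 5162 in knockout hearts and 2193, 2027 and 2319 in control hearts.

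Ckb was called in all 16 alternative settings, with log2 differences between 1.12 and 1.26 and adjusted p between 2.04e-07 and 0.0193 (limma). Without control array 1 the difference was 1.19 ± 0.16 SE (limma adjusted p = 0.00671), and without knockout array 1 it was 1.17 ± 0.17 SE (limma adjusted p = 0.00704). Markers of cell types rich in the B subunit were read beside it. The summed linear signal of 6 smooth muscle markers on the array was 2726 to 3957 in knockout hearts and 4146 to 5006 in control hearts. The sum was carried by Acta2 (mean log2 signal 10.55 in knockout and 11.39 in control hearts) and Smtn (10.69 and 10.79). Of the 4 tested, Acta2 fell (log2 difference -0.84), a call that was lost in 6 of 16 alternatives. The other 3 were not called and lay near 0, with Myh11 at 0.01, Smtn at -0.10 and Tagln at -0.10, and Cnn1 was not detected on any array. Of 11 neuron and glia markers, 8 were on the array and 5 of these, S100b, Gfap, Prph, Th and Snap25, were not detected on any array. Only Uchl1 was tested. It was detected on all 6 arrays and not called, with overlapping groups (log2 difference 0.32 ± 0.19 SE, limma adjusted p = 0.382). Tubb3 and Dbh were detected in control hearts only, on 1 and 2 arrays. The summed signal of the 8 was 177 to 195 in knockout hearts and 176 to 189 in control hearts. Most of it is near background, so it cannot show whether these cells differed.

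Ckm (chromosome 7, GRCm38.p6, 19411094 to 19421583) encodes the M subunit, the main cytosolic isoform of adult muscle. Its signal was 12.71, 12.27 and 12.08 in the knockout hearts, against 11.83, 12.19 and 12.09 in the control hearts. Knockout array 1 was the highest and control array 1 the lowest, and the other 4 arrays of the 2 groups were interleaved. The log2 difference of 0.32 ± 0.18 SE was not called (limma adjusted p = 0.357). Its fold was 1.25 with a 95% interval of 0.949 to 1.65. Without knockout array 1, the array with high Myl4, Sln and Myl7, the difference was 0.14 ± 0.18 SE, and without control array 1 it was 0.22 ± 0.19 SE. The part of these atrial genes in the Ckm value was not tested.

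Skeletal muscle, which also carries much Ckm, was read beside it. Of 10 skeletal muscle markers, 9 were on the array and 6 of these, including the fast myosin genes Myh1 and Myh4, were not detected on any array. The summed signal of the 9 was 471 to 521 in knockout hearts and 933 to 1381 in control hearts. The sum was carried by the myosin light chain gene Myl1, which fell (log2 difference -1.58, limma adjusted p = 0.000880). Tnni2, the only other marker tested, was dim and not called, with overlapping groups (log2 difference -0.12, limma adjusted p = 0.758). The part of the difference in summed signal in the Ckm result was not tested.

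Ckmt2 (chromosome 13, GRCm38.p6, 91853386 to 91876923) encodes the sarcomeric mitochondrial enzyme, and its 2 probes gave unequal differences. The brighter probe, ILMN_2817864, had 13.78, 13.65 and 13.94 in the knockout hearts, against 13.94, 13.67 and 13.75 in the control hearts. Its groups overlapped throughout, with a log2 difference of 0.00 ± 0.15 SE (limma adjusted p = 0.994) and a fold interval of 0.801 to 1.25. The other probe, ILMN_2698052, had 13.63, 13.39 and 13.68 in the knockout hearts, against 13.36, 13.26 and 13.21 in the control hearts. Here each knockout heart was above each control heart, by a narrow margin between knockout array 2 and control array 1. The log2 difference was 0.29 ± 0.14 SE and was not called (limma adjusted p = 0.287; fold interval 0.984 to 1.52).

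Both Ckmt2 probes are annotated to the same RefSeq transcript. Set against each other within arrays, the second probe minus the first was higher by 0.29 on the log2 scale in knockout hearts, with groups that did not overlap (2-sided exact permutation p = 0.1, the smallest that 3 against 3 arrays allow; 0.167 after adjustment over 5 such pairs). The brighter probe ranked 20 to 32 from the brightest signal of its array and the other 30 to 53. At equal rank quantile normalization assigns equal values, as for knockout array 3 and control array 1 of the brighter probe, both at rank 20. Whether the beads were saturated is not recorded in the tables used here.

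Ckmt1 (chromosome 2, GRCm38.p6, 121357773 to 121363737), the gene of the ubiquitous mitochondrial enzyme, was not above background in any heart. Its signal was 4.39, 4.21 and 4.55 in the knockout hearts and 4.35, 4.31 and 4.45 in the control hearts. The detection p ran from 0.102 to 0.838 in knockout and from 0.142 to 0.436 in control arrays, and all 6 values lay below the dimmest detected probe of their array, whose signal was 4.54 to 4.68. These values are bounds, and no fold was computed.

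**Figure D2:**
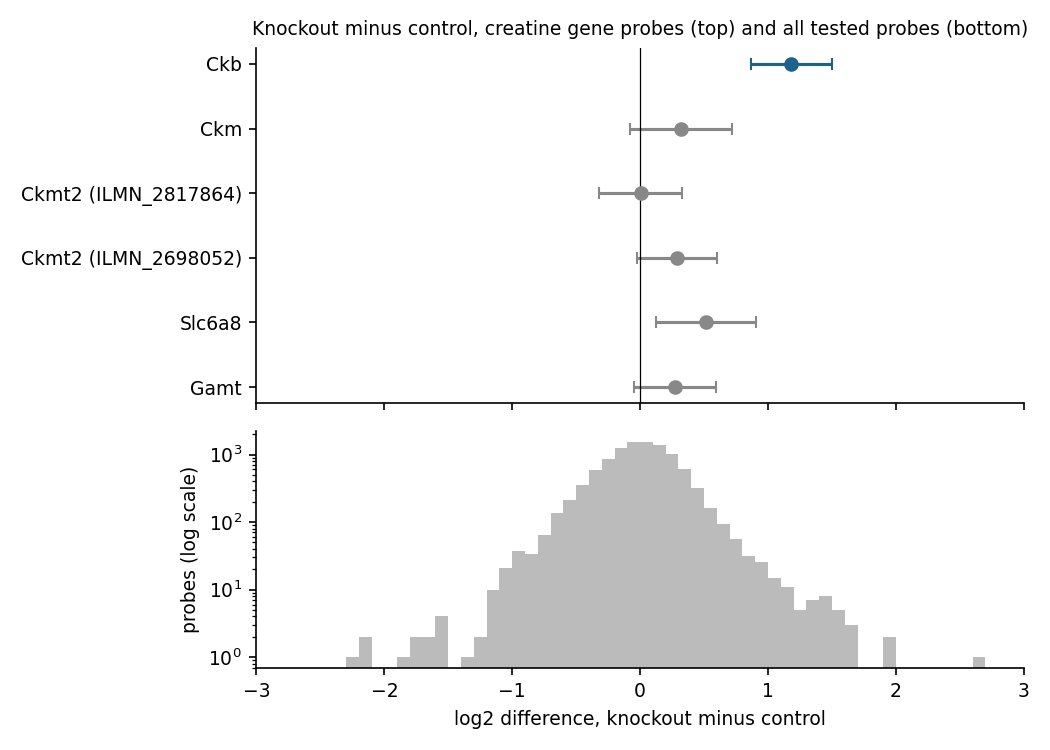
Top, log2 difference (knockout minus control) of the 6 tested probes with limma's 95% interval; blue marks the called probe and grey the others. Bottom, the number of tested probes per bin of 0.1 over all 10407, on a log axis. Ckb, at 1.18, lies in the sparse upper tail, and the other 5 probes lie between 0.00 and 0.51.

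The kinase genes were also set against each other within arrays. The exact permutation test could not call any of these pairs, because its smallest possible p of 0.1 lies above the threshold for a call. The differences are therefore described by their size and by the overlap of the groups. Taken as Ckb minus Ckm on the log2 scale and centred on the mean of the 6 arrays, the values were 0.11, 0.36 and 0.82 in the knockout hearts, against -0.21, -0.71 and -0.38 in the control hearts. The groups did not overlap, although they came close between knockout array 1 and control array 1. The group means differed by 0.86 (2-sided exact permutation p = 0.1, the smallest possible; 0.167 adjusted over 5 pairs), and by 0.67 to 1.02 when any 1 array was left out. Ckb minus Ckmt2 (brighter probe) was 0.64, 0.58 and 0.55 in the knockout hearts and -0.73, -0.60 and -0.45 in the control hearts. That is a difference of 1.18, wide of the spread within groups (SD 0.04 in knockout, 0.14 in control; exact permutation p = 0.1, 0.167 adjusted). Ckm minus Ckmt2 overlapped between the groups, with a difference of 0.32 (exact permutation p = 0.4, also 0.4 adjusted). The brighter Ckmt2 probe itself differed by 0.00, so the pairs with Ckmt2 largely restate the differences of Ckb and of Ckm. They are not separate results. Levels of different probes cannot be set against each other, so no isoform share was computed.

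**Figure D3:**
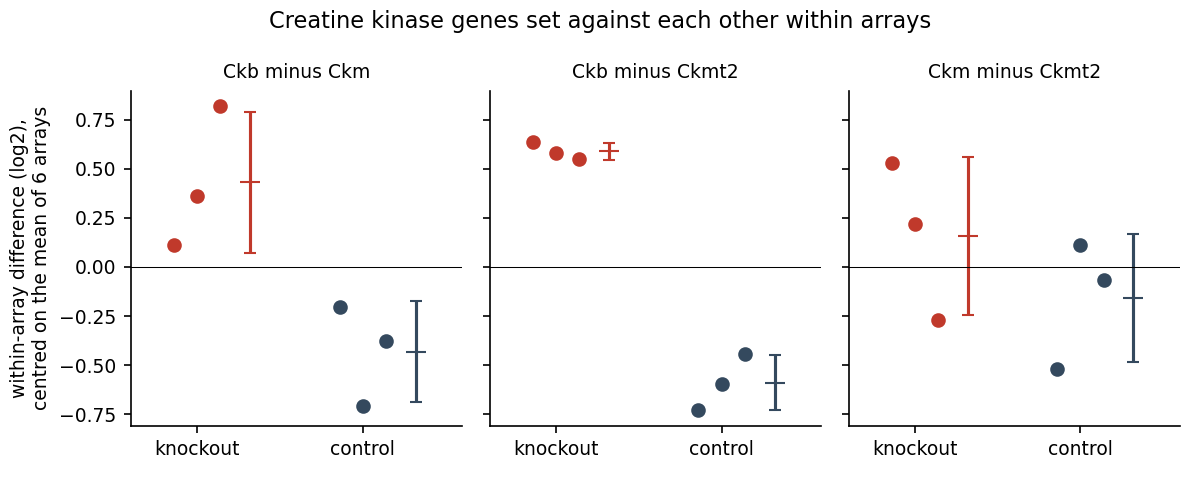
Differences of log2 signal between pairs of creatine kinase genes within each array, centred on the mean over 6 arrays, in knockout (red) and control (dark blue) hearts; bars are mean ± SD over 3 arrays. For Ckb minus Ckm and for Ckb minus Ckmt2 all knockout points lie above all control points, and for Ckm minus Ckmt2 they overlap.

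Slc6a8 (chromosome X, GRCm38.p6, 73673133 to 73682502), which encodes the plasma membrane creatine transporter, had the second largest difference of the 6 probes, without a call. Its signal was 10.66, 10.94 and 10.37 in the knockout hearts, against 9.89, 10.22 and 10.31 in the control hearts. The groups were apart by only 0.05 on the log2 scale, between knockout array 3 and control array 3. Means were 10.66 ± 0.29 in knockout and 10.14 ± 0.22 in control hearts (SD, n = 3 each). The log2 difference was 0.51 ± 0.18 SE, or 1.43-fold with an interval of 1.09 to 1.87, and 8.48% of tested probes had a larger absolute difference. The adjusted p was 0.139 (limma; unadjusted 0.0144). With a trended and robust variance prior the same difference was called (limma adjusted p = 0.0300), and in the authors' value table it was 0.42 with an adjusted p of 0.05005 (limma), just short of a call. Ckb minus Slc6a8 differed between the groups by 0.67, with overlapping arrays (exact permutation p = 0.2, 0.25 adjusted over 5 pairs).

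**Figure D4:**
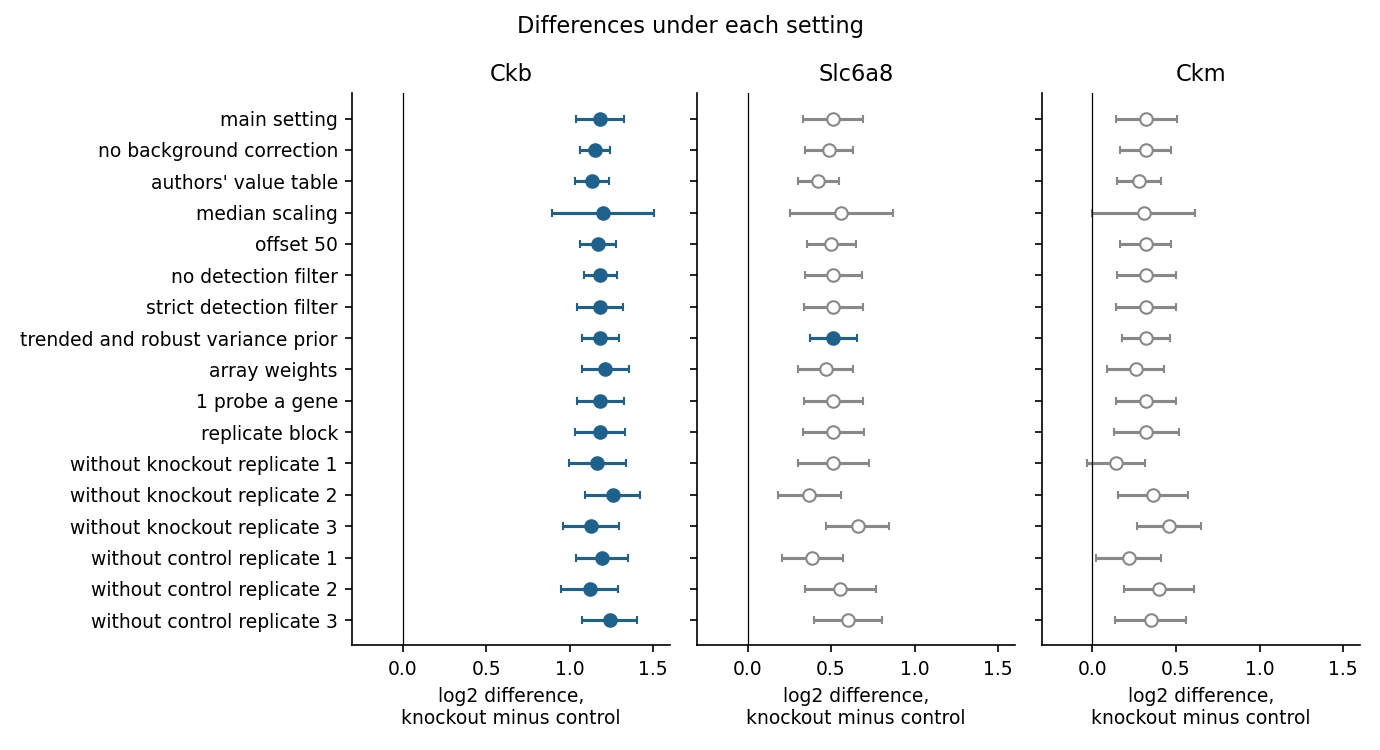
Log2 difference (knockout minus control) ± SE of Ckb, Slc6a8 and Ckm under the main setting and 16 alternatives; filled blue points are called at an adjusted p below 0.05 and open grey points are not. Ckb is called under each setting, Slc6a8 only with the trended and robust prior, and Ckm under none.

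Of the synthesis genes, Gamt was detected and Gatm was not. Gamt (chromosome 10, GRCm38.p6, 80258151 to 80261025) encodes the methyltransferase that completes creatine from guanidinoacetate. Its signal was 6.03, 5.99 and 6.04 in the knockout hearts, against 5.71, 5.57 and 5.95 in the control hearts. The knockout hearts lay close together and just above control array 3, with a log2 difference of 0.27 ± 0.15 SE that was not called (limma adjusted p = 0.332; fold interval 0.968 to 1.51). Gatm (chromosome 2, GRCm38.p6, 122594473 to 122611277) encodes the amidinotransferase of the first step. It had 4.19, 4.28 and 4.32 in the knockout hearts and 4.46, 4.28 and 4.20 in the control hearts, with a detection p of 0.150 or more on each array. All its values lay below the lowest detected signal of the same array.

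Counted together, 4 of the 6 tested probes, those of Ckb, Slc6a8 and Gamt and the dimmer Ckmt2 probe, had every knockout heart above every control heart. The same was true of 13.0% of all tested probes. With median scaling in place of quantiles this held for Ckb alone, 1 of 6 probes, against 3.08% of all tested probes, so that the separation of the other 3 probes depended on the scaling. Their differences were positive in every alternative run for them.

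Genes that feed or use the system were read from lists, each gene by its brightest tested probe. The lists were chosen with earlier results of these data known. Over all 7579 genes tested in this way 153 were higher, 140 were lower and the median log2 difference was 0.01. None of 5 tested genes listed for ADP and ATP exchange across the mitochondrial membranes was called, and their median was -0.14. They were Slc25a5, Slc25a3, Vdac1, Vdac2 and Vdac3. The listed carrier gene Slc25a4 was not on the array and Slc25a31 was not detected on any array, so neither was read. The channel gene Vdac1 had -0.37 ± 0.14 SE (limma adjusted p = 0.174) and Vdac2 -0.16 ± 0.15 SE (0.622). Vdac1 was called as lower without background correction (limma adjusted p = 0.0420) and in none of the other alternatives. None of 4 genes of the M-band, where the M isoform is anchored, or of the main users of ATP was called either (median 0.04). The slow myosin gene Myh7 had 0.71 ± 0.26 SE (adjusted p = 0.162) and the myomesin gene Myom1 0.05 ± 0.14 SE (0.869).

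Other phosphate-transferring enzymes were read from a list of adenylate kinases, nucleoside diphosphate kinases, hexokinases and phosphoglycerate kinase. Of 11 tested, 1 rose, 1 fell and 9 were not called, with a median of -0.03. The adenylate kinase gene Ak1, whose product interconverts ADP with ATP and AMP, had 8.51, 7.95 and 8.27 in the knockout hearts and 9.57, 10.34 and 10.12 in the control hearts. All knockout hearts were lower by a wide margin (log2 difference -1.77 ± 0.21 SE, limma adjusted p = 0.000998). The nucleoside diphosphate kinase gene Nme3 rose, with 8.32, 8.36 and 8.41 in the knockout hearts and 7.76, 7.43 and 7.80 in the control hearts (0.70 ± 0.15 SE, limma adjusted p = 0.0268). The Ak1 call held in all 16 alternatives. That of Nme3 was lost in 7 of 16, among them the omission of any array but control 1, with adjusted p of 0.0560, 0.0857 and 0.0745 without knockout array 1, 2 or 3, and 0.118 and 0.0614 without control array 2 or 3 (limma).

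Around the precursors of creatine, Gnmt rose under every setting, while the calls of Odc1 and Phgdh depended on the setting. Of 8 tested genes of arginine and glycine supply 2 passed the test as higher and 6 did not (median 0.10), and 7 of the 17 listed were not detected on any array. Odc1, whose product turns ornithine into putrescine, had 9.76, 10.48 and 9.79 in the knockout hearts and 8.94, 9.15 and 9.05 in the control hearts (0.97 ± 0.19 SE, limma adjusted p = 0.0194). Phgdh, of serine synthesis, was detected on 3 knockout arrays and on no control array, and so entered the test only through the group in which it is high. Its call (limma adjusted p = 0.0496) is not independent of that filter, and its signal was at least 1.33-fold higher in knockout. That fold takes the signal of the dimmest detected probe as the floor on each control array. Of 6 genes of methyl donor supply 1 rose and 5 were not called (median 0.23). The riser was Gnmt, which encodes the enzyme that methylates glycine with S-adenosylmethionine, the methyl donor that the product of Gamt also uses. It had 6.83, 6.66 and 6.40 in the knockout hearts and 4.99, 5.50 and 5.56 in the control hearts (1.28 ± 0.18 SE, limma adjusted p = 0.00331). Mtap, of methionine salvage, had 0.48 ± 0.16 SE and was not called (0.132). The Gnmt call held in all 16 alternatives. That of Odc1 was lost without knockout array 2 (limma adjusted p = 0.0537) or control array 3 (0.0793), with median scaling and with no detection filter. Phgdh kept its call in 3 of 15 alternatives and lost it without any array (0.0603 to 0.198).

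None of 3 tested related transporters was called (median -0.15), with the carnitine transporter gene Slc22a5 at -0.41 ± 0.15 SE (limma adjusted p = 0.144) and the taurine transporter gene Slc6a6 at -0.15 ± 0.15 SE (0.644). Nor was any of 9 regulators that are linked to creatine kinase genes or to muscle energy metabolism (median -0.05). The AMP-activated kinase subunit gene Prkaa2 had 0.57 ± 0.18 SE (adjusted p = 0.0960) and the serum response factor partner gene Myocd 0.32 ± 0.15 SE (0.257). A list of genes of the fetal or stressed heart, a set to which Ckb is often added, was also read. The list also held Uck2, a gene of pyrimidine salvage that is not a usual member of that set. Of 8 tested, 2 rose, 1 fell and 5 were not called (median 0.66). With Uck2 set aside, Acta1 was the only riser. The skeletal actin gene Acta1 (2.68 ± 0.20 SE) and Uck2 (1.64 ± 0.29 SE) rose, with limma adjusted p of 0.000170 and 0.00960. Acta2, which encodes the actin of smooth muscle, fell (-0.84 ± 0.18 SE, limma adjusted p = 0.0291). The Acta1 call held in all 16 alternatives and that of Uck2 in 14. Acta2 lost its call in 6, with adjusted p of 0.109 and 0.0561 without knockout array 2 or 3, and 0.0616 and 0.129 without control array 2 or 3 (limma). Prkaa2 gained a call in 5, one of them the omission of control array 1 (0.75 ± 0.16 SE, adjusted p = 0.0285).

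**Figure D5:**
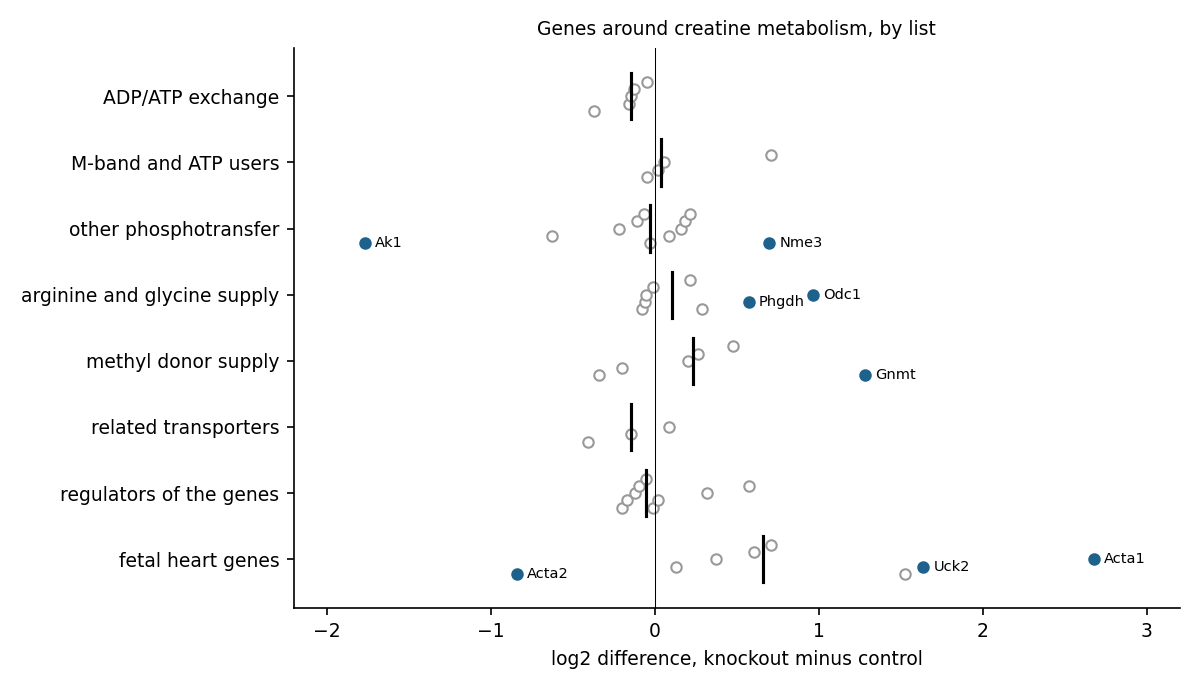
Log2 difference (knockout minus control) of each tested gene of 8 lists around creatine metabolism; filled points are called and named, open points are not, the black bars are list medians, and the vertical scatter within a list only separates points. Called genes lie on both sides of 0 in the lists of other phosphotransfer and of fetal heart genes.

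The heart label was read against its markers. Of 9 cardiomyocyte markers 8 were on the array and 7 were tested, and none was called. Tnni3 had the largest difference, -1.05 ± 0.32 SE (limma adjusted p = 0.0933), with overlapping groups. The others tested lay between -0.22 (Pln) and 0.15 (Myl3). The summed signal of the 8 was 90293 to 99313 in knockout hearts and 91555 to 97028 in control hearts. It was carried by very bright probes such as those of Myh6, Myl2 and Myl3. Quantile normalization assigns equal values at equal rank, so this sum can show little of a difference between groups. None of 7 endothelial, 6 fibroblast or 6 macrophage markers tested was called. Of 4 atrial markers, 3 were high on knockout array 1 alone. Myl4 had 10.23, 5.75 and 5.95 in the knockout hearts, against 5.86, 5.71 and 5.77 in the control hearts. Sln had 6.89 on knockout array 1 and was not detected on any other array, where it was at most 4.41. Myl7 had 6.06 there and at most 4.43 elsewhere, again not detected. The natriuretic peptide gene Nppa went the other way, with 11.71, 14.24 and 12.64 in the knockout hearts and 12.81, 12.24 and 12.43 in the control hearts, so that knockout array 1 was the lowest. The sums of 4 erythroid markers were 5960 to 16624 in knockout hearts and 1602 to 10151 in control hearts. Whether these differences bear on the creatine genes was not tested.

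The genes whose array profile lay closest to that of Ckb were found among 7578 genes by the root mean square difference of log2 signal, each profile centred on its mean over the 6 arrays. They were the histone gene H2ac20 (0.13), the proton pump subunit gene Atp6v1g2 (0.14), the histone gene H3c4 (0.15), the cell cycle inhibitor gene Cdkn1a (0.15) and 1110008P14Rik (0.15). Histone genes have close relatives that their probes may also bind. Their log2 differences, which the choice by likeness to Ckb largely fixes, were 1.06 (H2ac20), 1.38 (Atp6v1g2), 1.38 (H3c4), 1.27 (Cdkn1a) and 1.07 (1110008P14Rik).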

How the data were processed

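Heart RNA of 6 mice was measured on 6 Illumina bead arrays. The authors deposited intensity values that were not normalized, each with a detection p-value, per the file headers, and a value table of intensity on a linear scale that shares nearly 1 distribution over arrays. GenomeStudio is the tool in the submitters' processing notes, and how the table was normalized was not given in the sources used here. Probe symbols came from the platform annotation (23977 probes with 1 symbol, 1719 unnamed here), and loci and upstream sequences from RefSeq tables of GRCm38.p6 (6 of the 7 genes had an upstream sequence).

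The intensities were background-corrected, quantile-normalized and put on the log2 scale by the function neqc (limma 3.58.1, R 4.3.3, offset 16). Probes detected (p below 0.05) on 3 or more of the 6 arrays were tested, knockout against control, with lmFit and eBayes (2-sided, Benjamini-Hochberg over all tested probes, called below 0.05), as checked on simulated data. Pairs of genes within arrays were compared by exact permutation over the 6 arrays. Same-numbered arrays did not deviate together (r -0.06, -0.00025 and -0.06), so the replicate numbers were not used as pairs. The number of arrays limits the precision. No slide or scan date is given in the sources used here.

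The genes, lists and tests were chosen with earlier results of these data known. Named genes were Nelfb, the 7 genes, the called genes of each list (or, where fewer than 2 were called, the 2 of smallest p) and the 5 profiles nearest to a called gene. Alternatives covered background, scaling, offset, detection filter, variance prior, array weights, 1 probe a gene, the replicate block and leaving out each array. Python 3.11.15 with matplotlib 3.10.9 drew the figures.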

Additional observations from a re-analysis of the deposited data

How the results depend on the processing

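The count of 1 called probe, that of Ckb, held under 15 of 16 alternatives and was 2 with a trended and robust variance prior, where Slc6a8 was also called. The count over all probes, 395 in the main setting, moved more. It was 694 without background correction, 732 from the value table of the authors, 69 by median scaling, 691 at an offset of 50, 163 over all probes whether detected or not, 773 with the trended and robust prior and 735 with array weights. Leaving out 1 array gave 131 to 491. The replicate block, which the check of the numbers did not bear out, gave 299, with Ckb still called (adjusted p = 0.00397, limma), and changed no other call among the 6 probes. The brighter Ckmt2 probe, at 0.00, lay between -0.073 and 0.081 when 1 array was left out, and was negative without knockout replicate 3, control replicate 2 or control replicate 3. Myom1, at 0.05, lay between -0.030 and 0.105 in the same way and was negative without control replicate 1. Median scaling gave Ckb, Ckm and Odc1 a common SE of 0.31, against 0.14, 0.18 and 0.19 in the main setting. With median scaling the share of higher among called probes was 59.4%, against 50.6% in the main setting, and without control replicate 1 it was 40.3%. The cause of these changes was not tested. The dim Gamt probe had a difference of 0.12 to 0.38 over the alternatives, and Ckm one of 0.14 to 0.46.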
